A study of Arabidopsis thaliana with 7 samples.

Results

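Intracellular immune receptors of the nucleotide-binding leucine-rich repeat family were examined in whole Arabidopsis seedlings of the wild type and of a line lacking chalcone synthase, which opens the flavonoid pathway. A list of 39 locus identifiers of receptor genes, some of them without a common name, defined the set. Every table row whose gene column held 1 of these identifiers was taken. Of these 39, 38 were found among the 21184 genes of the table, and 1 was not analysed here. The genes were selected on their known function with the differences between genotypes in these same libraries in view, so the differences between genotypes below are a description of the listed genes, and no test of them as a set is made.

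Polyadenylated RNA was sequenced from 4 libraries of the wild type Col-0 (replicates 1 to 4) and 3 of tt4-11 (replicates 2 to 4), a line that the labels describe as lacking functional chalcone synthase. Both genotypes were 5 days old, raised at 22 °C on agar with 2% sucrose in unbroken light, without a pathogen or elicitor in the labels. Recovered reads per library ranged from 2021368 to 2205449. TT4, the chalcone synthase gene, stood between 2464 and 3148 scaled reads in Col-0 and between 54.9 and 96.7 in tt4-11. Leaf and root markers fixed for a whole seedling were present in all 7 libraries: RBCS1A, a Rubisco gene, at 2645 to 3597 scaled reads, and PYK10, a root enzyme gene, at 9594 to 12947. The antenna protein gene LHCB3 averaged 818 scaled reads in Col-0 and 2059.8 in tt4-11, the root hair gene EXPA7 17.7 scaled reads in Col-0 and 9.38 in tt4-11, and the seed storage gene CRA1 0.479 scaled reads in Col-0 and 2.85 in tt4-11. The part of such markers in the receptor values was not tested. In whole seedlings, fewer cells of a type and less RNA per cell cannot be told apart.

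Receptors of this family sit inside the cell and respond to effector proteins that pathogens deliver there. A central nucleotide-binding domain acts as a switch, a leucine-rich repeat region contributes to recognition, and the amino-terminal domain divides the family. TIR receptors begin with a Toll/interleukin-1 receptor domain and signal through the lipase-like protein EDS1. CC receptors begin with a coiled coil. A small group with an RPW8-type coiled coil, the ADR1 and NRG1 proteins, serves as helpers downstream of the others. Because active receptors can trigger cell death and stunt growth, plants hold their transcripts in check, among other means through the microRNA miR472, which targets the sequence of CC receptors that encodes the P-loop of the nucleotide-binding domain.

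The 38 genes comprised 19 of TIR, 14 of CC and 5 of RPW8 type. The P-loop is the feature that all classes share, so its coding stretch is shown for members of each class. In the RefSeq coding sequences on the TAIR10.1 build, 37 of 38 held a codon run for the P-loop pattern of a glycine, any 4 residues, then glycine, lysine and serine or threonine; this pattern was not found in the longest coding sequence of NRG1.1. The stretches read 5′ to 3′ on the coding strand, with the last 3 codons of the pattern in capitals. The build behind the deposited table is not given in the sources used here, and positions are those of TAIR10.1.
SUMM2, chr1:4176990-4177013, minus strand: ggcatgggtggagtaGGCAAAACC
AT1G61190, chr1:22558139-22558162, plus strand: ggtatgggtggtgtaGGCAAAACA
RPM1, chr3:2228404-2228427, minus strand: gggatgggcggttcaGGGAAAACT
RPS2, chr4:13225139-13225162, plus strand: ggacctggtggggttGGGAAGACA
ADR1, chr1:12169668-12169691, plus strand: ggaatgagcggttcaGGGAAAACC
ADR1-L2, chr5:1361366-1361389, plus strand: gggatgagtggttcaGGGAAAACC
RPP1, chr3:16094908-16094931, minus strand: ggaccgcctgggattGGTAAGACA
WRR4, chr1:21169672-21169695, plus strand: ggtcctgcaggcattGGTAAGAGT
SNC1, chr4:9504722-9504745, minus strand: ggacaatcagggattGGTAAGAGT
Of the stretches shown, those of SUMM2, AT1G61190, RPM1, ADR1 and ADR1-L2 have the methionine codon atg at the second position, whereas RPS2, RPP1, WRR4 and SNC1 have other codons there. The stretches shown do not stand for whole classes: several TIR genes not shown, among them RPS4, CSA1 and DSC1, have atg there too.

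The mature miR472-3p, read from the same reference (chr1:4182143-4182164, minus strand), is shown because its best complementary site falls at the P-loop stretch in all 14 CC genes, against 9 of 19 TIR genes and 3 of 5 helpers. Capitals mark bases 2 to 8, the seed.
miR472-3p: uUUUUCCUacuccgcccauacc
With no gaps and G:U pairs counted as mismatches, the best complementary site in each coding sequence was scored. In all 14 CC genes the best site began within 30 bases of the start of the P-loop stretch. A best site was not always a close match: that of RPS2 had 9 mismatches, and those of the TIR genes had 6 to 9. SUMM2, AT1G61190, AT1G61300 and AT1G63360 had 3 mismatches. A site with at most 3 mismatches occurred in 0 of 19 TIR genes and 0 of 5 helper genes, and in 0.0925% of 20534 coding sequences of the table. At most 5 mismatches were found in 10 of 14 CC genes and 1 of 5 helpers (ADR1-L1), against 0.302% of all coding sequences. The miR472 transcript itself was not analysed here.

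Levels in Col-0 spanned a wide range in each class. Levels here are scaled reads per kilobase of the longest RefSeq transcript, a measure that allows genes to be compared. SNC1, a TIR receptor known from a gain-of-function allele that causes autoimmunity, was highest at 118, followed by RPP13, a CC receptor for downy mildew, at 74.8. The helper ADR1-L2 stood at 60.2, the TIR gene RPP4 at 59.5, AT1G61190 at 49.4 and the helper NRG1.1 at 48.3. The order of RPP13, ADR1-L2 and RPP4 was not clear, because their Col-0 libraries overlapped. At the low end were RPP8 at 0.132, CHS1 at 0.994 and ADR1-L1 at 1.13. The class medians were 16.6 for TIR, 11.7 for CC and 35.4 for the helpers.

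The table lists 9 of the 38 genes under several transcript models, among them RPP8 and ADR1-L1. How reads shared by models were counted is not given in the sources used here, so the levels of these 9 are not taken as absolute, and the part of the counting in them was not tested. Paralogous receptors also share sequence. RPP4, RPP5 and SNC1 belong to 1 cluster and NRG1.1 lies next to NRG1.2, so the division of reads between such genes is uncertain.

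**Figure D1:**
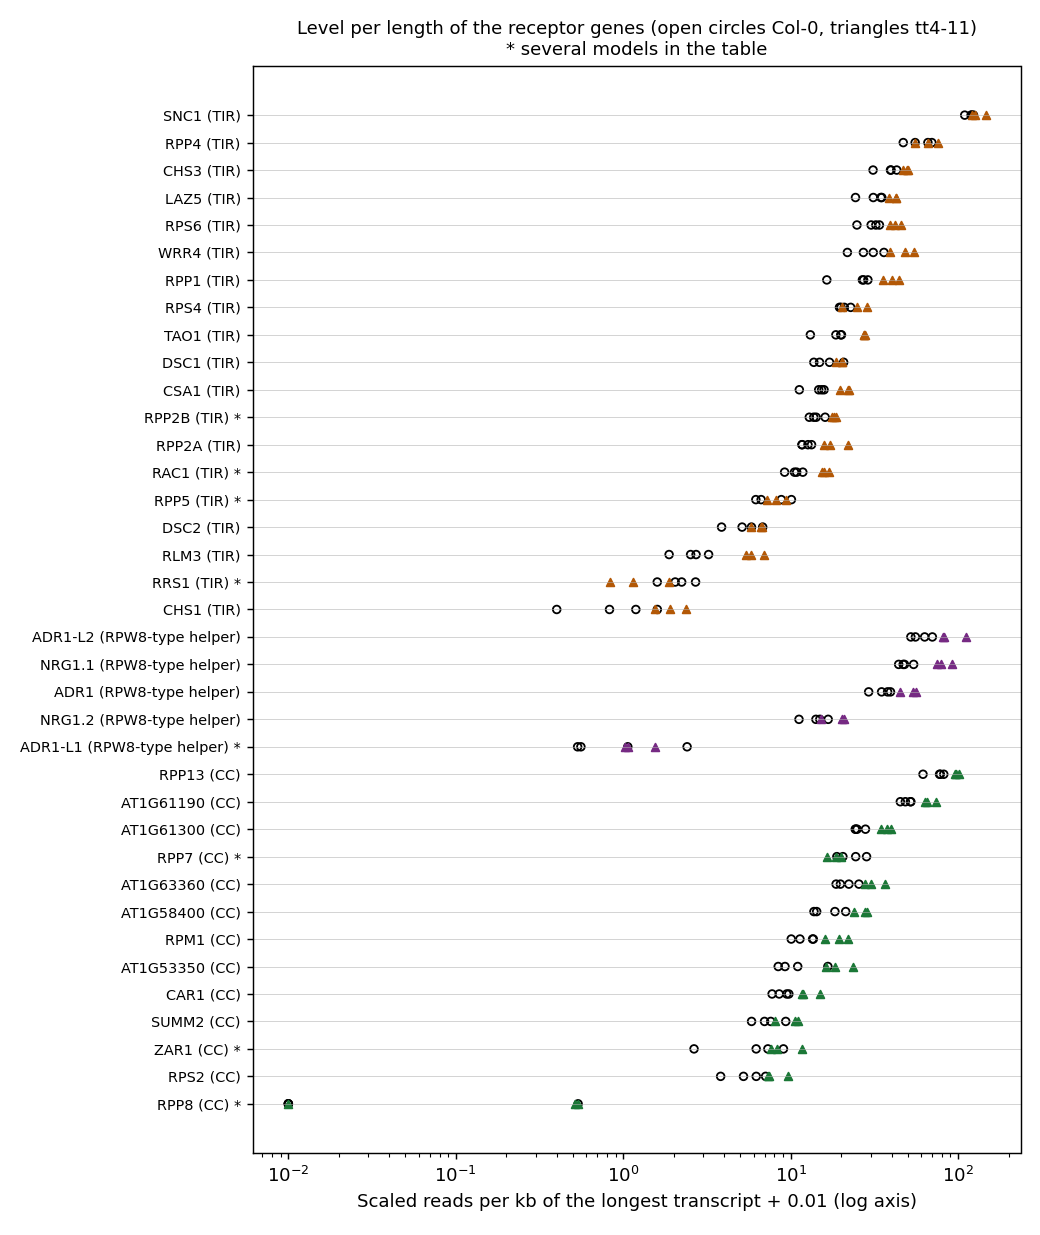
Scaled reads per kilobase of the longest transcript (log axis, 0.01 added) for 37 of the 38 receptor genes in 4 Col-0 libraries (open circles) and 3 tt4-11 libraries (triangles). SNC1 stands highest with 118 in Col-0, and a star marks the 8 genes drawn that have several models in the table.

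Most of the listed receptors stood higher in tt4-11 than in Col-0, by a modest amount. Of 38 genes, 34 passed the filter on low values, and 18 of these were called higher and 0 lower by limma with Benjamini-Hochberg adjustment (adjusted p of at most 0.05 over all 13301 genes tested). Among all genes tested, 7.07% were called higher and 6.55% lower. Differences below are on the scale of log2(scaled reads + 1), tt4-11 minus Col-0, with their standard error (SE), a scale on which changes of low genes appear smaller than they are. The median difference of the 34 genes was 0.52, against -0.011 for all tested genes, and 32 of 34 were above 0, against 48.8% of all tested genes. Called differences ran from 0.39 to 1.16, and 1 of the 18 reached 2-fold. The p-values behind the calls measure only the spread between these samples, since the labels do not say whether replicates were separate cultures.

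Every tt4-11 library lay above every Col-0 library in 22 of the 34 genes and below in 0, while 13.7% of all tested genes were separated upward and 12.9% downward. The median of the 34 genes relative to their Col-0 means stood at -0.22, 0.12, 0.074 and 0.035 for the Col-0 libraries in order of replicate. It stood at 0.38, 0.49 and 0.56 for the tt4-11 libraries. Col-0 replicate 1, which also stood apart from the other libraries on a principal component of all genes, was the lowest. Without it 17 genes were called higher (6.73% of all genes) and the median was 0.44. Summed over all 38 genes, scaled reads came to 3502 ± 251 for Col-0 (SD, n = 4) against 4651 ± 355 for tt4-11 (SD, n = 3), a ratio of 1.33.

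**Figure D2:**
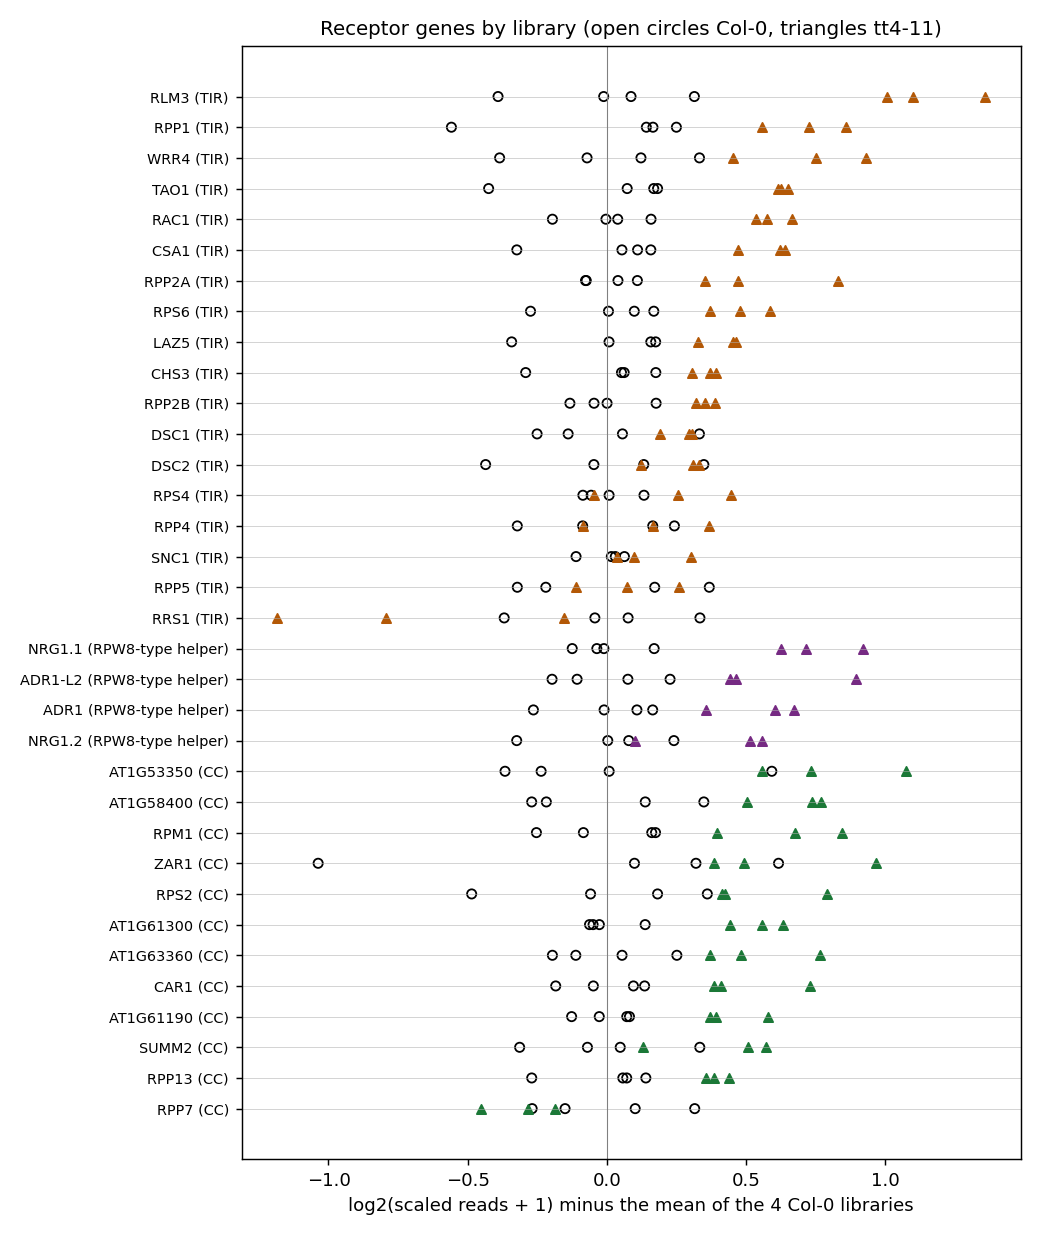
Each library's log2(scaled reads + 1) minus the mean of the 4 Col-0 libraries, for the 34 tested receptor genes by class (open circles Col-0, triangles tt4-11). Triangles lie to the right of every circle in 22 genes, and Col-0 replicate 1 contributes the lowest median, -0.22.

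Receptor transcripts are long, and most of the calls were lost when a trend with transcript length over all genes was removed. The longest annotated transcript of the 38 genes measured 2445 to 5674 bases, and all 38 were longer than the median of tested genes, 1791 bases. Across 13091 tested genes, longer transcripts tended to be higher in tt4-11 (Spearman's rho = 0.293, across genes, which are not independent replicates). The same correlation, taken library by library with deviations from the mean of all libraries, ran from -0.27 to -0.13 in Col-0 and from 0.13 to 0.24 in tt4-11. With that trend removed from each library, 4 receptor genes were called higher (RLM3, WRR4, NRG1.1 and ADR1-L2) and 1 lower (RPP7), beside 5.46% and 5.01% of all genes. The median difference was then 0.32 (all genes tested -0.029), with 29 of 34 above 0. Which part of the differences belongs to the genotype and which to the length trend cannot be told apart from these libraries. The calls also rested on the number of tt4-11 libraries: 12, 3 and 1 genes were called higher without tt4-11 replicates 2, 3 and 4, where 4.47%, 3.64% and 3.13% of all genes were. DESeq2 called 16 members (6.78% of all genes), a replicate block 16 (6.91%), and the genes with 1 RefSeq mRNA gave 7 of 14 tested members (7.51%).

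**Figure D3:**
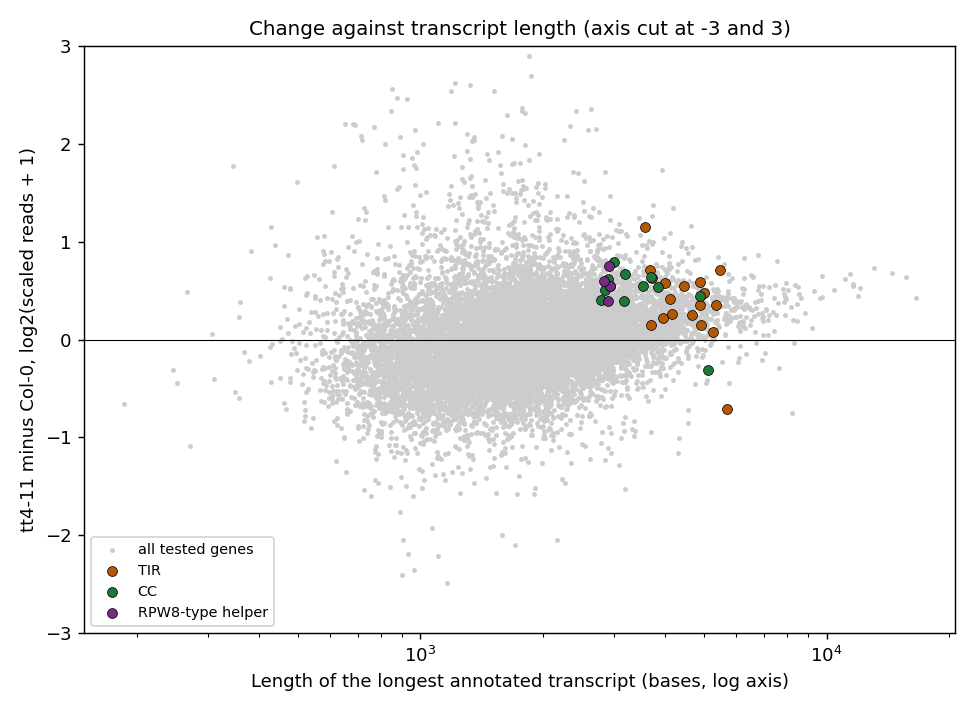
Difference between genotypes (tt4-11 minus Col-0, log2 scale) against the length of the longest annotated transcript (log axis) for all tested genes (grey) and the receptors by class. The tested receptors, which are those drawn, lie between 2786 and 5674 bases, in the range where the grey cloud is shifted upward. Beyond 3 in either direction lie 10 genes, which are not drawn.

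Among the helpers 3 of 4 tested genes were called higher and 0 lower. NRG1.1 acts with EDS1 and SAG101 downstream of TIR receptors. It read 139, 129, 158 and 137 scaled reads across the Col-0 libraries (replicates 1 to 4), while the tt4-11 libraries (replicates 2 to 4) read 217, 231 and 267. The groups did not overlap, and every tt4-11 value exceeded the highest Col-0 value by more than the range of Col-0. The means were 141 ± 12.4 for Col-0 (SD, n = 4) against 238 ± 25.6 for tt4-11 (SD, n = 3), a difference of 0.75 (SE 0.12). It was the 1 member called higher with each of the 7 libraries left out in turn (0.67 to 0.82) and with the length trend removed (0.63).

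ADR1-L2 and ADR1 act with EDS1 and PAD4 and carry redundant functions. ADR1-L2 read 158, 148, 199 and 179 scaled reads in Col-0 and 235, 231 and 317 in tt4-11, with replicate 4 the highest of tt4-11. Its difference was 0.60 (SE 0.14), and of the 7 libraries left out in turn, its call was lost without tt4-11 replicate 4. ADR1 read 102, 85.5, 115 and 111 scaled reads in Col-0 and 132, 165 and 157 in tt4-11, again without overlap, a difference of 0.54 (SE 0.14). Its call was lost without tt4-11 replicate 3 or 4 and with the length trend removed (0.42). NRG1.2, which lies 171 bases from NRG1.1 on the same strand, read 32.5, 43.3, 48.5 and 41 scaled reads in Col-0 and 44, 58.9 and 60.7 in tt4-11. The groups overlapped, and NRG1.2 was not called (0.39 (SE 0.19)). ADR1-L1 held 17 reads summed over Col-0 and 14 over tt4-11 and did not pass the filter.

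Among CC receptors 7 of 12 tested genes were called higher and 0 lower, with a median of 0.54. By mean scaled reads the most abundant was AT1G61190. It read 221, 236, 253 and 255 scaled reads across the Col-0 libraries (replicates 1 to 4), while the tt4-11 libraries (replicates 2 to 4) read 312, 317 and 360.2. The groups were separate and the spread within each was small. The difference was 0.45 (SE 0.11), and 0.19 with the length trend removed, where it was not called, nor was it without tt4-11 replicate 4. RPP13 read 247, 259.5, 195 and 245 scaled reads in Col-0 and 308, 302 and 319.7 in tt4-11, also separate, a difference of 0.39 (SE 0.12) that lay just inside the call threshold. Its call was lost when Col-0 replicate 3 or any 1 tt4-11 library was left out, and with the length trend removed (0.25).

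RPM1 guards RIN4, a membrane-bound protein that several bacterial effectors modify. It read 37.3, 50.0, 50.5 and 42 scaled reads in Col-0 and 59, 71.8 and 80.9 in tt4-11, a difference of 0.64 (SE 0.18) with no overlap. The call was lost without tt4-11 replicate 3 or 4, with the length trend removed (0.45) and with a replicate block. RPS2, which guards RIN4 too, read 22, 13.5, 18.4 and 25 scaled reads in Col-0 and 26.2, 34.1 and 26 in tt4-11. All 3 tt4-11 values were above Col-0, but RPS2 was not called (0.55 (SE 0.26)), and its Col-0 libraries held 81 reads in all.

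The listed CC genes without a common name were all called, AT1G61190 above and the 4 genes that follow. Among the CC genes with a common name, only RPM1 and RPP13 were called. AT1G53350 read 27.7, 50.0, 25.2 and 33 scaled reads in Col-0 and 55.2, 48.8 and 70.3 in tt4-11. It was the 1 called gene whose groups overlapped, through Col-0 replicate 2, and its difference was 0.79 (SE 0.23). Without Col-0 replicate 1 or 3 or any 1 tt4-11 library its call was lost. AT1G58400 read 43.9, 58.6, 45.6 and 68 scaled reads in Col-0 and 75.8, 89.3 and 91.5 in tt4-11, a difference of 0.67 (SE 0.18). AT1G61300 read 71.6, 81.7, 72.8 and 71 scaled reads in Col-0 and 101, 109.6 and 116 in tt4-11, a difference of 0.54 (SE 0.14). In both genes the groups were separate. AT1G63360 read 71.6, 98, 85.4 and 76 scaled reads in Col-0 and 107, 115 and 141 in tt4-11, a difference of 0.54 (SE 0.15), also separate. None of these 4 was called without tt4-11 replicate 3, without tt4-11 replicate 4 or with the length trend removed. AT1G58400 was also not called without Col-0 replicate 3, nor AT1G63360 without Col-0 replicate 4 or with a replicate block.

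The 4 tested CC genes with at most 3 mismatches to miR472-3p differed by 0.40 to 0.54 (median 0.49, 3 called), and the other 8 by -0.31 to 0.79 (median 0.58, 4 called). These ranges overlap, and no test of their difference was made. SUMM2, which monitors the MEKK1-MPK4 kinase cascade and was the 1 gene of these 4 without a call, gave 0.40 (SE 0.24). RPP8 held 2 reads summed over Col-0 and 4 over tt4-11 and was not tested.

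RPP7, a downy mildew receptor whose transcript processing depends on the chromatin protein EDM2, was the 1 tested CC gene with a difference below 0. It read 96.5, 145, 105 and 125 scaled reads in Col-0 and 95.4, 102 and 84.7 in tt4-11. Col-0 replicates 1 and 3 fell within or near the tt4-11 range, and the gene was not called (-0.31 (SE 0.15)). With the length trend removed it was called lower (-0.58); its longest transcript has 5116 bases, and the table lists it under 2 models. ZAR1, which assembles into a membrane channel on activation, gave 0.61 (SE 0.34), and CAR1, a receptor for the bacterial effectors AvrE and HopAA1, gave 0.51 (SE 0.21). Neither was called, although the CAR1 groups did not overlap.

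Among TIR receptors 8 of 18 tested genes were called higher and 0 lower, with a median of 0.39. RLM3, a TIR gene that lacks the repeat region and is known from resistance to blackleg fungus, had the largest difference of all members. It read 6.69, 11.5, 9.7 and 9 scaled reads across the Col-0 libraries (replicates 1 to 4), while the tt4-11 libraries (replicates 2 to 4) read 20.6, 24.9 and 19.3. All tt4-11 libraries exceeded all Col-0 libraries, but the reads were few (38 in Col-0 and 69 in tt4-11). The difference was 1.16 (SE 0.30), and 0.98 with the length trend removed, where it kept its call. Its call was lost without any 1 tt4-11 library and with DESeq2. RefSeq lists 19 transcripts for this gene, while the table holds 1 model of it.

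RPP1, a receptor of downy mildew effectors, read 89.8, 149, 147 and 158 scaled reads in Col-0 and 196, 220.0 and 242 in tt4-11. Col-0 replicate 1 was far below the other Col-0 libraries, and the groups were separate. The difference was 0.71 (SE 0.17), and 0.53 without Col-0 replicate 1. WRR4, which gives resistance to white rust, read 80.2, 133, 115 and 100.0 scaled reads in Col-0 and 144, 178 and 201 in tt4-11, a difference of 0.71 (SE 0.17). It kept its call with the length trend removed (0.52), while RPP1 did not (0.42). Both lost the call without tt4-11 replicate 3 or 4.

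RPS6, TAO1 and RAC1 were also called. RPS6, which responds to HopA1, read 124, 169, 161 and 151 scaled reads in Col-0 and 195, 226 and 209.9 in tt4-11, a difference of 0.48 (SE 0.13). TAO1, which contributes to the response to AvrB, read 48.7, 69.2, 74.7 and 74 scaled reads in Col-0 and 104, 101 and 102 in tt4-11, a difference of 0.63 (SE 0.16). In both the groups were separate, and the 3 tt4-11 values of TAO1 lay within 3 scaled reads of each other. RAC1, named for resistance to white rust, read 44.9, 57.7, 51.4 and 53 scaled reads in Col-0 and 82.3, 77.3 and 75.1 in tt4-11, a difference of 0.59 (SE 0.16). With the length trend removed none of these 3 was called (0.21, 0.44 and 0.33). RPS6 also lost its call without tt4-11 replicate 3 or 4, and TAO1 and RAC1 without any 1 tt4-11 library.

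SNC1 and RPP4, the most abundant TIR genes, were not called. SNC1 read 536, 605, 585 and 591 scaled reads across the Col-0 libraries (replicates 1 to 4), while the tt4-11 libraries (replicates 2 to 4) read 619, 594 and 715. The tt4-11 values began within the Col-0 range, and the difference was 0.15 (SE 0.10). RPP4, its neighbour and a downy mildew receptor, read 174, 258, 205 and 244 scaled reads in Col-0 and 205, 244 and 281 in tt4-11, a difference of 0.15 (SE 0.15). RPP5 of the same cluster gave 0.075 (SE 0.21). All 3 were below 0 with the length trend removed (-0.12, -0.039 and -0.20), and RPP5 was also below 0 without Col-0 replicate 1 or tt4-11 replicate 4.

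Several receptors lie side by side on a chromosome. RPS4 and RRS1 work as a pair, RRS1 carrying a WRKY domain as a decoy, and lie head to head on chromosome 5 with 27 bases between them. RPS4 read 77.4, 82.7, 90.3 and 79 scaled reads in Col-0 and 79.5, 112 and 98.2 in tt4-11, a difference of 0.22 (SE 0.15). RRS1 read 15.3, 11.5, 12.6 and 9 scaled reads in Col-0 and 4.68, 6.44 and 10.6 in tt4-11, a difference of -0.71 (SE 0.36). Groups overlapped in both, neither was called, and the table splits RRS1 over 2 models. Whether the authors' counting used strand is not given in the sources used here, so reads near a shared start cannot be assigned with certainty.

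CSA1 and CHS3, also a divergent pair on chromosome 5 (3544 bases apart), act together as sensor and partner. CSA1 read 44.9, 58.6, 63.1 and 61 scaled reads in Col-0 and 78.6, 87.5 and 88.6 in tt4-11, a difference of 0.58 (SE 0.16), and was called. Its call was lost without any 1 tt4-11 library, with the length trend removed and with a replicate block. CHS3, which has an added LIM domain, read 210.1, 165, 212 and 229 scaled reads in Col-0 and 251, 266 and 262 in tt4-11, a difference of 0.36 (SE 0.12). Both sets of groups were separate, and CHS3 lay just outside the threshold. RPP2A and RPP2B, a tandem pair on chromosome 4 that is needed jointly against downy mildew, gave 0.55 (SE 0.16) and 0.35 (SE 0.14). RPP2A read 56.4, 51.9, 59.2 and 52 scaled reads in Col-0 and 70.2, 76.4 and 98.2 in tt4-11. It lay just inside the threshold and lost its call with DESeq2, with the length trend removed, and when replicate 2 or 4 of Col-0, or 3 or 4 of tt4-11, was left out. RPP2B was not called, although its groups did not overlap.

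Of the remaining TIR genes, LAZ5, known from lesion mutants, lay just outside the threshold (0.42 (SE 0.14)) with separate groups. DSC1 and DSC2, known for their part in camta3 autoimmunity, gave 0.27 (SE 0.16) and 0.25 (SE 0.23) with overlapping groups. LAZ5 and CHS3 were called when Col-0 replicate 4 was left out. CHS1, named for its chilling-sensitive mutant, held 10 reads in Col-0 and 15 in tt4-11 and was not tested.

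**Figure D4:**
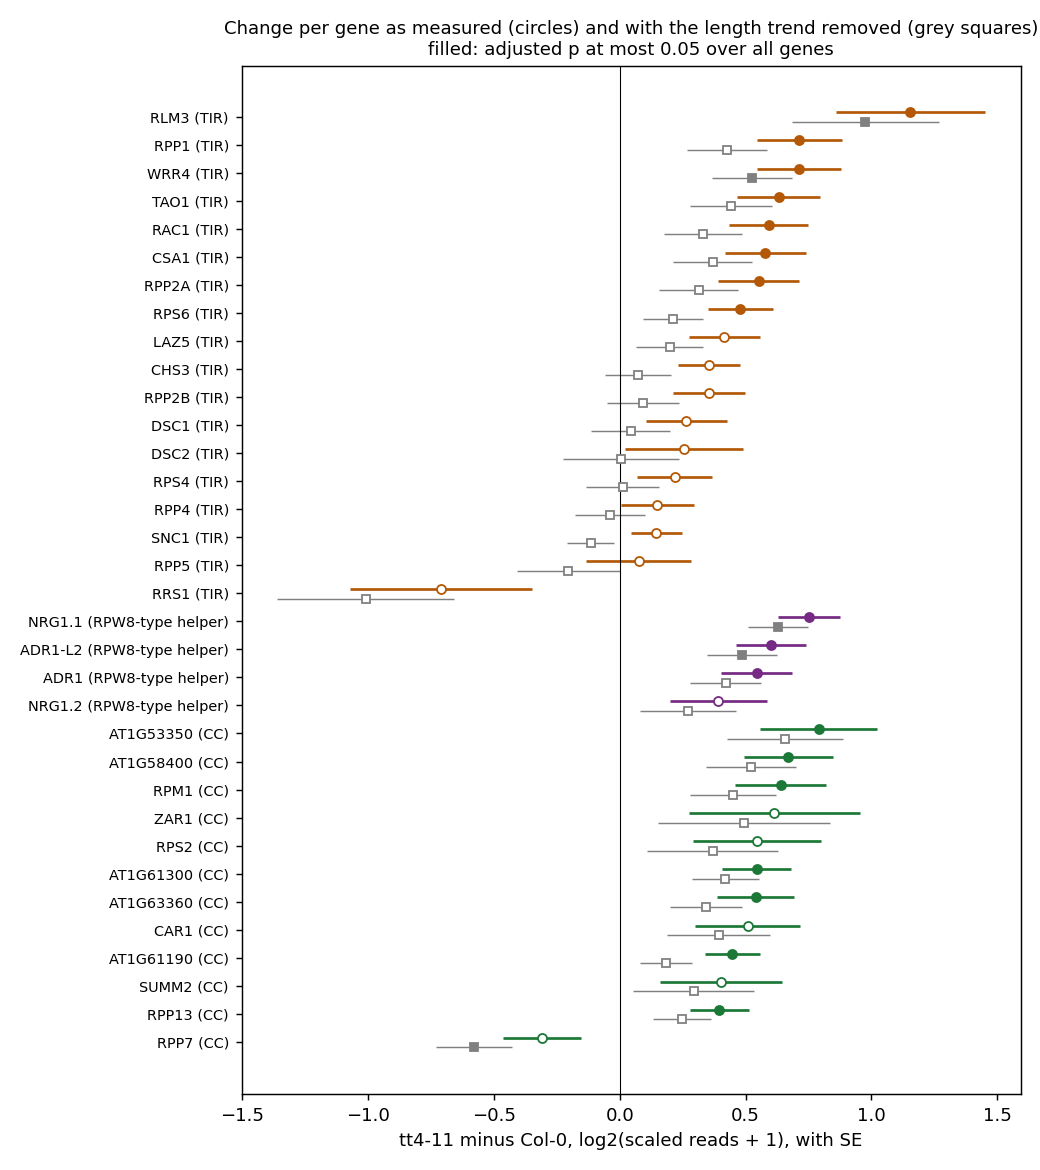
Difference between genotypes with its SE for the 34 tested receptor genes, as measured (circles, coloured by class) and with the transcript length trend removed (grey squares). Filled symbols mark an adjusted p of at most 0.05 over all genes: 18 circles, and 5 squares, of which RPP7 lies below 0.

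TIR and CC receptors were compared by class. As measured, the medians were 0.39 for TIR, 0.54 for CC and 0.57 for the helpers, with 8 of 18, 7 of 12 and 3 of 4 genes called higher. The summed scaled reads of the TIR genes were 2068 ± 179 for Col-0 (SD, n = 4) against 2641 ± 187 for tt4-11 (SD, n = 3), a ratio of 1.28. Sums weigh abundant genes most: SNC1, which was not called, averaged 579 scaled reads in Col-0 and 642 in tt4-11. For CC the sums were 974 ± 80.7 and 1301 ± 81.6, a ratio of 1.34, and for the helpers 461 ± 52.4 and 709 ± 87.5, a ratio of 1.54 (SD, n = 4 and 3). TIR transcripts are the longer ones, with a median of 4448 bases against 3238.5 for CC and 2918 for the helpers. With the length trend removed the medians were 0.15, 0.38 and 0.45. In that fit 2 TIR, 0 CC and 2 helper genes were called higher, where 5.46% of all genes were. Called lower were 0 TIR, 1 CC and 0 helper genes, where 5.01% of all genes were. Genes are not replicates and the members were chosen with results known, so the difference between classes was not tested. The further receptor genes described next did not share the order of TIR below CC.

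RefSeq product names with a term for a TIR class or nucleotide-binding receptor gave 108 further genes of the table, of which 53 were tested. Called higher were 10 and lower 0 (limma with Benjamini-Hochberg adjustment), with a median of 0.39 and 45 of 53 above 0. The called genes are 18.9% of those tested, beside 7.07% of all genes, and 84.9% were above 0, beside 48.8% of all genes. By product name, the median was 0.41 for 36 tested TIR genes (8 called). It was 0.34 for 17 tested genes of CC or other nucleotide-binding type (2 called). TIR stood above CC here, unlike among the members. With the length trend removed these medians were 0.19 and 0.18. The called genes with the largest differences were AT3G04210 at 1.07 (SE 0.32), AT5G58120 at 0.97 (SE 0.19) and AT5G46490 at 0.87 (SE 0.25), all of TIR type by product name. AT5G58120 was called with each of the 7 libraries left out, and the other two each with 3 of the 7. With the length trend removed 2 were called, AT5G58120 and AT5G48620, which is 3.77% of those tested and below the 5.46% of all genes called higher in that fit. The median in that fit was 0.18 (all genes tested -0.029), with 39 of 53 above 0. The count of called genes was 5 without Col-0 replicate 1 or 2, where 6.73% and 6.23% of all genes were called higher. It was 3 without tt4-11 replicate 3 or 4 (3.64% and 3.13% of all genes) and 5 with DESeq2 (6.78%).

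The proteins that work with the receptors were examined as a separate list. Of 33 listed partners and regulators 31 were in the table and 23 were tested; 2 were called higher, 0 lower and 21 were not called, with a median of 0.061. The 2 genes are 8.7% of those tested, near the 7.07% of all genes called higher. RIPK, a kinase that phosphorylates RIN4, read 72.6, 94.2, 94.1 and 111 scaled reads in Col-0 and 161, 178 and 169 in tt4-11, a difference of 0.87 (SE 0.15). SRFR1, a negative regulator of TIR receptors, read 259.8, 279, 265 and 280.0 scaled reads in Col-0 and 360.3, 383 and 392 in tt4-11, a difference of 0.48 (SE 0.10). In both the groups were separate, and SRFR1 was not called with the length trend removed. PAD4 (0.061 (SE 0.26)), SAG101 (-0.064 (SE 0.32)) and NDR1, a membrane protein needed by several CC receptors (0.80 (SE 0.40)), were not called. EDS1 held 14 reads summed over Col-0 and 24 over tt4-11 and was not tested.

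The 250 bases before each gene's annotated start were searched for the W-box, the motif bound by WRKY regulators of defence genes, as TTGACC or TTGACT on either strand. A match was found in 14 of 38 receptor genes (36.8%), against 28.5% of 20533 genes of the table with such a window. Among called genes 7 of 18 had a match, and 7 of 16 among those not called. Windows of RAC1 and RPP13, both called, are shown as members that hold the motif, with matches in capitals (RefSeq, TAIR10.1).
RAC1, chr1:11293800-11294049, minus strand: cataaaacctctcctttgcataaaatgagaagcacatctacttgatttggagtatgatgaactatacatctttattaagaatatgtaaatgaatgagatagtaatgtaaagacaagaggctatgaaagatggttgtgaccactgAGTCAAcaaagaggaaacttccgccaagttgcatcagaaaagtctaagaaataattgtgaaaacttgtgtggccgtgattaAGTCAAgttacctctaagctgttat
RPP13, chr3:17133463-17133712, minus strand: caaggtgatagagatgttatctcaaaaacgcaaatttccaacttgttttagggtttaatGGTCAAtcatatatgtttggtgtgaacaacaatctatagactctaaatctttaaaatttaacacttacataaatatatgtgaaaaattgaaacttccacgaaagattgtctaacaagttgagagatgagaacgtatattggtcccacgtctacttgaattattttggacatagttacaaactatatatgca
The 14 tested genes with a match had a median difference of 0.43 and the 20 without one 0.54.

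The authors' deposited table gives 1 result per transcript model. Of its 47 models of the 38 genes, 13 had an adjusted p of at most 0.05 and a higher value in tt4-11, and 0 were lower, beside 3.17% of 23051 models called higher in the table as a whole. By the authors' deposited table RLM3 and RPP13 were among the 13, while CSA1, RPM1, RAC1, RPP2A and AT1G53350 were not.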

How the data were processed

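RNA sequencing measured polyadenylated transcripts in 4 Col-0 and 3 tt4-11 libraries, and sample titles gave the groups. Per the submitters' processing notes, TopHat2, HISAT2, HTSeq and DESeq2 were used; their versions, the build and the strand setting are not stated there. The deposited signal values are counts per transcript model that the authors scaled by library, and Col-0 replicate 4 holds whole counts as deposited. Dividing by each library's step gave whole reads in 100% of values (tolerance 0.01). The deposited adjusted p-values and the deposited score (the sign of the test statistic) were used only to describe the authors' own calls. After 1 repeated row was dropped, 23051 models were summed to 21184 genes. The members and lists were chosen with earlier results of these data known.

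Because 6 of 7 columns hold scaled values, limma (3.58.1, trend option, R 4.3.3) was fitted to log2(scaled value + 1) for all genes passing edgeR's filterByExpr (minimum count 10) and called genes at a two-sided Benjamini-Hochberg adjusted p of 0.05. This follows the design set for scaled counts. Adjusted p-values of members are not printed, as the members are no independent sample. Alternatives were edgeR (4.0.16) and DESeq2 (1.42.0) on recovered reads, TMM factors, no filter, pseudocount 0.1, genes with 1 model, a loess trend on transcript length removed from each library, each library left out, and a replicate block. Functions were tested on simulated data. Within-group library pairs differed beyond counting noise (chi-square per degree of freedom 1.93 to 4.93). Annotation and sequences came from RefSeq TAIR10.1 by locus identifier; 20534 of 21184 genes had a coding transcript there. Values in every library are given for called members, tested helpers and the 3 members of each class with the highest mean; those of RPS2, RPS4 and RRS1 were added after their values were seen, as were remarks on other uncalled members. The individual values of 1 further member, which did not pass the filter, are not reported here.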

Additional observations from a re-analysis of the deposited data

Results flagged for a closer look

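In Col-0, 2 of the 34 tested receptor genes had 1 library whose gap to the nearest other exceeded Dixon's 95% critical value, where chance flags about 1 in 20 groups. AT1G61300 stood at 81.7 scaled reads in Col-0 replicate 2, against 71 to 72.8 in the other Col-0 libraries. RPP1 stood at 89.8 in Col-0 replicate 1, against 147 to 158 in the others, and its difference was 0.53 without that library.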

How the results depend on the processing

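Of 518 pairs of a named member and an alternative, 444 kept direction and call, 64 lost the call, 4 gained one and 6 changed sign. With the transcript length trend removed, 4 members were called higher and 1 lower, where 5.46% and 5.01% of all genes were. In that fit 1 of 23 tested partners (4.35%) and 2 of 53 tested other receptor genes (3.77%) were called higher. The medians were 0.32 for members, 0.15 for TIR and 0.38 for CC. RPP4 (-0.039), RPP5 (-0.20) and SNC1 (-0.12) changed sign. Among genes with 1 RefSeq mRNA, an alternative chosen after seeing the data that tests fewer genes, 7 members, 1 partner and 2 other receptor genes were called higher. Of all genes tested in that fit, 7.51% were called higher. With 1 library left out at a time, the calls ran from 1 to 18 for members, from 2 to 3 for partners, from 3 to 9 for other receptor genes and from 896 to 1782 for all genes, and RPP5 ran from -0.032 (without Col-0 replicate 1) to 0.20, with -0.018 without tt4-11 replicate 4. DESeq2 called 5 other receptor genes higher, beside 6.78% of all genes. A replicate block over replicates 2 to 4 called 16 members, 15 of them shared, and 6 other receptor genes, with RPP5 at -0.032. In that fit 6.91% of all genes were called higher. The block lost the calls of RPM1, CSA1 and AT1G63360 and gained that of CHS3. Same-numbered libraries correlated at 0.058, 0.017 and 0.064, each highest with its own number. This is a hint from the data and not the design, so the numbers were not taken as pairs. The cause of these shifts was not tested. The 4 members that did not pass the filter held at most 17 reads in either group, so differences in them were not detectable from these counts. Of these 4, 3 are listed under several transcript models. The part of depth and of the counting of shared reads in their low counts was not tested.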
